A study of Homo sapiens with 12 samples.

Results

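The transcripts described here are 10 genes of the YAP and TEAD transcription programme, chosen by name: YAP1, WWTR1, TEAD1, TEAD4, CCN1, CCN2, ANKRD1, AMOTL2, LATS2 and AXL. All 10 were among the 19251 genes listed in the deposited files, and all 10 passed the filter on low values that left 17616 genes for testing. They were measured by RNA sequencing in CAOV3 and TOV21G, established human ovarian cancer cell lines. The labels give CAOV3 as an epithelial line of high grade serous type and TOV21G as an epithelial line of clear type, both wild type. Per the labels' protocols, 250000 cells were plated in 1.5 mL of DMEM with 10% FBS and received 10% ovarian cancer ascites (150 µL) for 16 h, or nothing. Ascites, the fluid that fills the abdomen of many patients with this cancer, carries lipids, growth factors and cells. No vehicle is described for the untreated cells, all groups shared the serum-containing medium, and each of the 4 groups held 3 libraries. Nothing in the labels says that the 3 libraries came from separate cultures, so the p-values measure the spread between these samples, which may be technical. Each value is the deposited normalised read count, a gene's reads divided by the size factor of its library.

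YAP (encoded by YAP1) and TAZ (encoded by WWTR1) are transcriptional coactivators that do not bind DNA themselves. When the Hippo kinases LATS1 and LATS2 phosphorylate them they are held in the cytoplasm or degraded, and when they are not they enter the nucleus and act through the TEAD factors, which bind the core sequence GGAATG. Serum, lipids such as lysophosphatidic acid, cell spreading and actin tension are known to move YAP and TAZ into the nucleus, and lysophosphatidic acid is known from ovarian cancer ascites. The regulation is largely post-translational, so the transcripts of the coactivators say little about their activity, which is usually read from target genes such as CCN1, CCN2 and ANKRD1. No protein was measured here.

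Each library held 26697609 to 34491304 recovered reads, and replicates of a group differed beyond read sampling in every pair (chi-square per degree of freedom 1.81 to 22.6 over 12 pairs). In TOV21G a single axis carried 67.7% of the variation left within groups, with control library 1 and ascites library 2 at one end (scores -14.0 and -12.9) and control library 2 and ascites library 3 at the other (12.6 and 10.5). In CAOV3 the leading axis carried 34.8%. Calls of the 10 genes after ascites are given below also without control 1 and ascites 2. Of the markers of the labelled types, PAX8 and WT1 were near 0 in the CAOV3 controls, at means of 19.1 and 4.59, while PAX8 was at a mean of 7032 in the TOV21G controls. SOX17 was not analysed here. The epithelial list of EPCAM, CDH1, KRT8, KRT18 and KRT19 summed to 131717 to 132806 in the CAOV3 controls and 11027 to 12423 in the TOV21G controls.

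**Figure D1:**
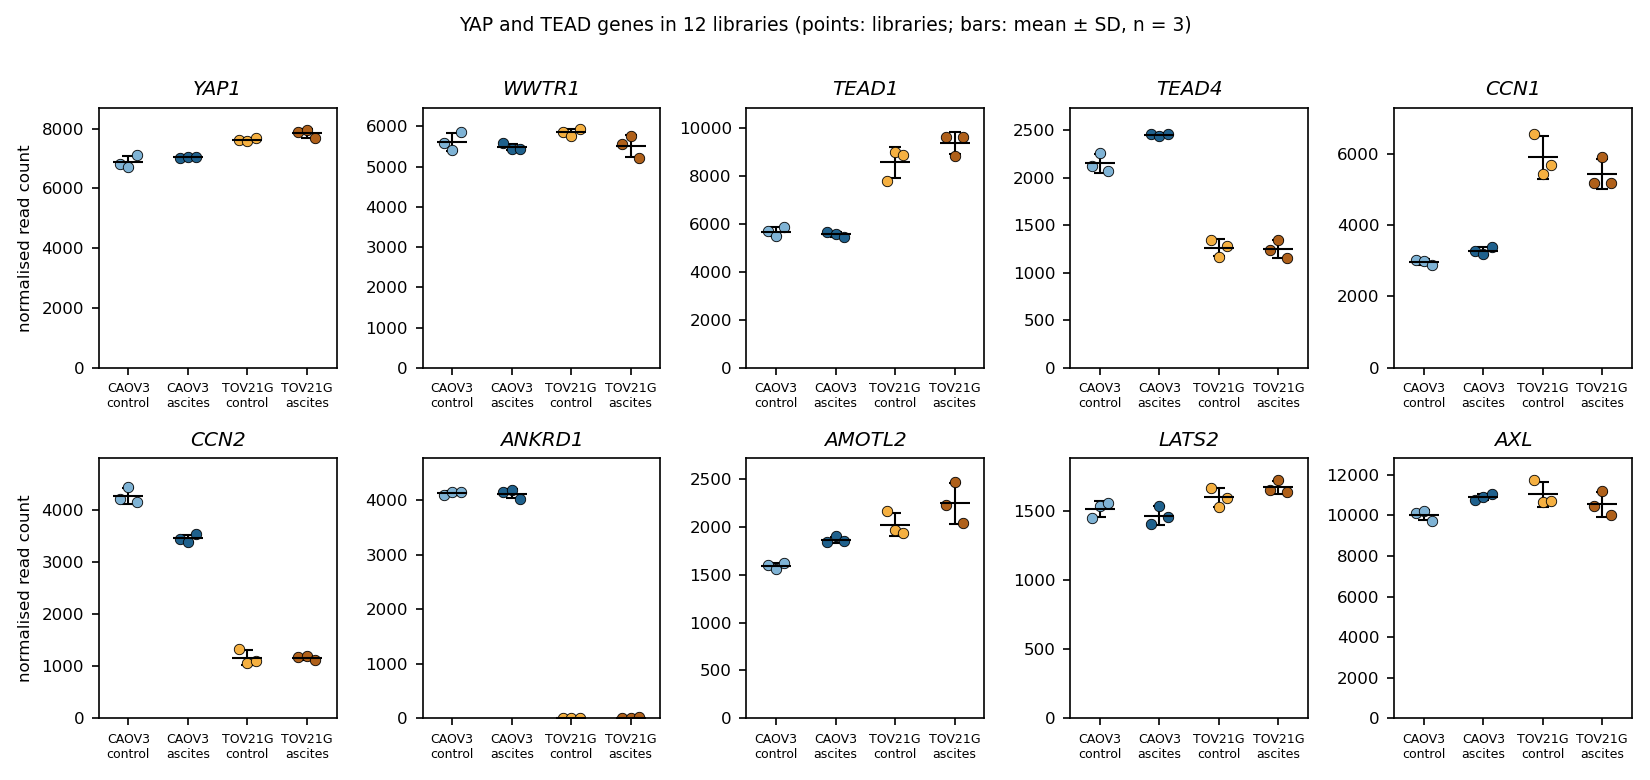
Normalised read count of each of the 10 genes in each of the 12 libraries (y axis, linear, starting at 0), by cell line and treatment (x axis). Points are libraries, and bars give the mean ± SD of 3 libraries. CCN2 was lower in the 3 CAOV3 ascites libraries (3394 to 3540) than in the 3 CAOV3 controls (4164 to 4458), and ANKRD1 was near 0 in every TOV21G library.

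In CAOV3, ascites moved a single gene of the 10 past the threshold: CCN2, a secreted matricellular protein and a standard YAP target, fell. Only CCN2 passed at an adjusted p under 0.05 (limma, Benjamini-Hochberg over all 17616 genes), so 1 of the 10 was called, against 1.73% of all tested genes (0.636% higher and 1.1% lower). For 5 of the 10 the ascites libraries lay entirely to one side of the controls, with TEAD4, CCN1, AMOTL2 and AXL above and CCN2 below, against 24.2% of all tested genes (11.4% above and 12.8% below). The same 5 genes had an unadjusted p under 0.05, against 12.9% of all tested genes. The median log2 fold change of the 10 genes was 0.02, and that of all tested genes was -0.00.

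In TOV21G none of the 10 was called after ascites, against 0.409% of all tested genes. The edgeR quasi-likelihood test and DESeq2 on the recovered reads also called 0 of the 10, against 0.647% and 0.857% of the tested genes. At an unadjusted p under 0.05 limma counted 2, TEAD1 and AMOTL2, both with higher means in ascites, against 9.17% of all tested genes. The ascites libraries lay to one side of the controls for 2 of the 10, YAP1 above and WWTR1 below, against 11.1% of all tested genes (4.16% above and 6.99% below). The median log2 fold change was 0.03, against -0.02 over all tested genes.

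**Figure D2:**
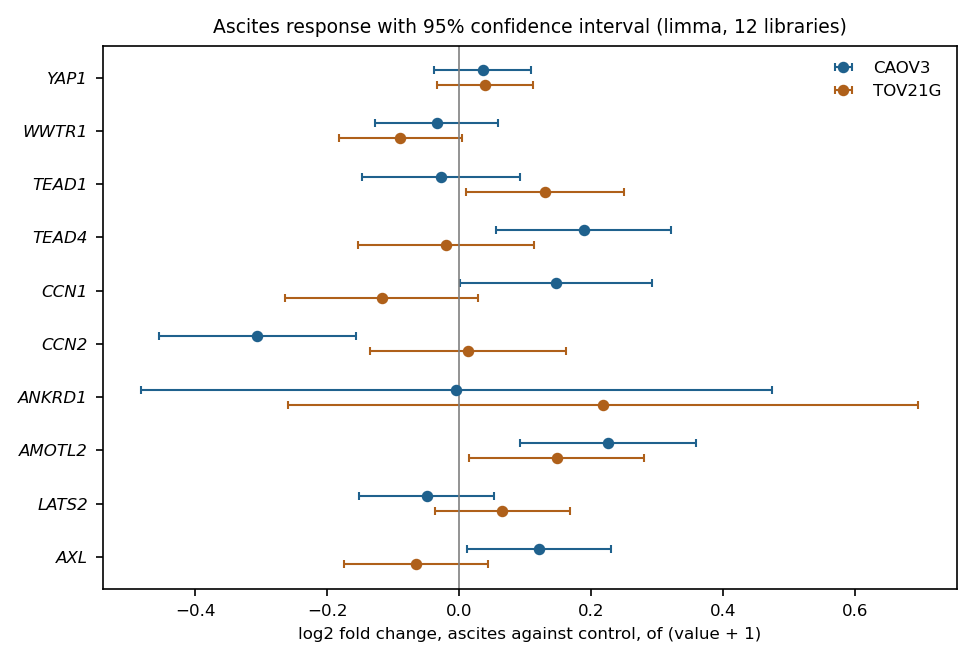
Log2 fold change of ascites against control (x axis, on the scale of log2 of the value plus 1) for each of the 10 genes (y axis), in CAOV3 and TOV21G. Points are limma estimates from the 12 libraries and bars are 95% confidence intervals. The interval of CCN2 in CAOV3 runs from -0.45 to -0.16, while in TOV21G the estimate for CCN2 is 0.01.

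The coactivator transcripts varied little. YAP1 (ENSG00000137693, chromosome 11, GRCh38 positions 102110461 to 102233423, plus strand) had values of 6812, 6714 and 7108 in the CAOV3 controls and 7034, 7056 and 7058 in CAOV3 ascites, so the groups overlapped. Its log2 fold change was 0.04 (SE 0.03, adjusted p 0.723). In TOV21G it was at 7614, 7600 and 7680 in the controls and 7885, 7959 and 7686 in ascites. The TOV21G ascites libraries all lay above the controls, the nearest pair by less than 6 counts, and the log2 fold change was again 0.04 (SE 0.03, adjusted p 0.732). The 95% intervals, -0.04 to 0.11 in CAOV3 and -0.03 to 0.11 in TOV21G, leave room for only small differences in YAP1 mRNA.

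WWTR1 (ENSG00000018408, chromosome 3, 149517235 to 149736714, minus strand), which encodes TAZ, was at 5584, 5422 and 5864 in the CAOV3 controls and at 5586, 5448 and 5437 in CAOV3 ascites. The groups overlapped (log2 fold change -0.03, SE 0.04, adjusted p 0.816). In TOV21G the controls were at 5873, 5752 and 5932 and the ascites libraries at 5567, 5749 and 5204, all below the controls but for ascites library 2 only by about 2 counts (log2 fold change -0.09, SE 0.04, adjusted p 0.564). Within a library the ratio of WWTR1 to YAP1 per kb of exon was 0.612 ± 0.00667 (SD, n = 3) in the CAOV3 controls and 0.583 ± 0.00993 in CAOV3 ascites. In TOV21G it was 0.574 ± 0.00654 in the controls and 0.525 ± 0.0171 in ascites. The ratio was lower in all 3 ascites libraries than in all 3 controls of the same line, in both lines, and YAP1 was the more abundant transcript per length in all 12 libraries. This ratio carries no test, and its level depends on the exon length used.

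Of the DNA-binding partners, TEAD1 (ENSG00000187079, chromosome 11, 12674591 to 12944483, plus strand) was at 5705, 5494 and 5866 in the CAOV3 controls and 5674, 5595 and 5472 in CAOV3 ascites. Those groups overlapped (log2 fold change -0.03, SE 0.06, adjusted p 0.91). In TOV21G the controls were at 7817, 9034 and 8887 and the ascites libraries at 9635, 8855 and 9653. The groups overlapped here too, with control library 1 lowest (log2 fold change 0.13, SE 0.06, adjusted p 0.501).

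TEAD4 (ENSG00000197905, chromosome 12, 2959330 to 3040673, plus strand) was at 2122, 2264 and 2070 in the CAOV3 controls and 2461, 2434 and 2457 in CAOV3 ascites. All 3 ascites libraries lay above all 3 controls, and the ascites libraries agreed closely, with an SD of 14.5 against 100.3 in the controls. The log2 fold change was 0.19 (SE 0.06, 95% interval 0.06 to 0.32), which did not pass after adjustment (adjusted p 0.189). In TOV21G, TEAD4 was at 1346, 1166 and 1280 in the controls and 1237, 1347 and 1159 in ascites, with overlapping groups (log2 fold change -0.02, SE 0.06, adjusted p 0.958). Per kb of exon, TEAD4 was the most abundant TEAD transcript in CAOV3, at 47.0% to 49.4% of the summed TEAD1, TEAD2, TEAD3 and TEAD4 level in the controls and 51.3% to 51.8% in ascites. In the TOV21G controls it made up 22.0% to 24.7%, and TEAD1 31.7% to 37.7%.

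The promoters of the 10 genes were searched for the TEAD core where a sequence was given. Whether a core goes with the ascites or cell line results was not tested. RefSeq (GRCh38.p14) gave promoter sequence for 7 of the 10 genes, in 10 windows of 250 bases before an annotated start. YAP1, WWTR1, CCN2, ANKRD1, AMOTL2, LATS2 and AXL had an entry, and TEAD1, TEAD4 and CCN1 are named only. The TEAD core GGAATG, searched on both strands, was found in 5 windows of 5 genes, against 11.9% of 35093 RefSeq windows of the same length. The windows of WWTR1 and LATS2 held no core. The AP-1 site TGANTCA was found in 1 gene, ANKRD1, against 6.57% of the windows, and the CArG box of the serum response factor in none, against 1.16%. A match is a string of letters and not a measured binding site. The CCN2 stretch (chr6:131951374-131951622, minus strand, 249 bases) holds the core 3 times, 169, 104 and 95 bases before the RefSeq start. It lies before the gene in both annotations and runs 5′ to 3′ with each core in capitals:
CCN2: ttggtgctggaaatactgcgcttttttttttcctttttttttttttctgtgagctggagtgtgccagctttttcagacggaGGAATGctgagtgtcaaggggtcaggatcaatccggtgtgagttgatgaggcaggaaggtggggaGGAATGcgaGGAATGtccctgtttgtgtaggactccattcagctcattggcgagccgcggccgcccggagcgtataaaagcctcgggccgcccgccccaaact

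Around the other matches 30 bases are shown on the strand of the gene, with the core in capitals, so CATTCC marks a core on the opposite strand. ANKRD1 held 2 cores, at chr10:90921290-90921319 and chr10:90921198-90921227 (minus strand), 220 and 128 bases before the RefSeq start. The nearer of them lies in an exon in GENCODE, which places the start of the gene further upstream. The YAP1 match (chr11:102110273-102110302, plus strand) lies before the gene, 162 bases before the RefSeq start. The AMOTL2 match (chr3:134374499-134374528, minus strand) lies 69 bases before an internal RefSeq start and in an exon of other AMOTL2 transcripts. The AXL match (chr19:41226531-41226560, plus strand) lies 212 bases before an internal start, in an intron of longer AXL transcripts:
ANKRD1, far: atcaccaccaaaGGAATGgccctctcacat
ANKRD1, near: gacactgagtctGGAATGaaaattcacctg
YAP1: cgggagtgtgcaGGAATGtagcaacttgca
AMOTL2: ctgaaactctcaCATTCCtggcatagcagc
AXL: cagactttgcacCATTCCactccctccgct

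CCN2 (ENSG00000118523, chromosome 6, 131948176 to 131951373, minus strand), with 3 cores in its promoter, was at 4213, 4458 and 4164 in the CAOV3 controls and 3447, 3394 and 3540 in CAOV3 ascites. The gap between the highest ascites library and the lowest control was wider than the range of either group. The mean fell from 4278 ± 157 to 3460 ± 73.6 (SD, n = 3), 0.809 times the control level. The log2 fold change was -0.31 (SE 0.07, 95% interval -0.45 to -0.16, adjusted p 0.0424). In TOV21G the controls were at 1329, 1061 and 1096 and the ascites libraries at 1178, 1203 and 1123. The groups overlapped, control library 1 was the highest, and the log2 fold change was 0.01 (SE 0.07, 95% interval -0.13 to 0.16, adjusted p 0.983).

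The call of CCN2 stood close to the threshold, while its direction and size were steady. When 1 of the 12 libraries was left out its log2 fold change stayed between -0.32 and -0.28, but the call held in only 3 of the 12 fits. It was lost without any 1 of the 6 CAOV3 libraries, and without TOV21G control 3, ascites 1 or ascites 3, with a highest adjusted p of 0.156 without CAOV3 ascites 2. CCN2 was called with TMM scaling, by edgeR and by DESeq2, and with the CAOV3 libraries fitted alone its adjusted p was 4.53e-06. The genes outside the 10 whose levels most followed CCN2 over the 12 libraries, after the mean of each line was subtracted, were OBSL1, RDM1P5 and ISM1, each at a Pearson r of 0.90. This is a description over libraries that share the treatment.

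CCN1 (ENSG00000142871, chromosome 1, 85580761 to 85583962, plus strand), the other secreted CCN protein that is widely used as a YAP target, went the other way in CAOV3. Its values were 3017, 3000 and 2876 in the controls and 3280, 3175 and 3392 in ascites, with all ascites libraries above the controls. The log2 fold change of 0.15 (SE 0.07, 95% interval 0.00 to 0.29) was not called (adjusted p 0.383). In TOV21G, CCN1 was at 6558, 5430 and 5688 in the controls and 5176, 5914 and 5182 in ascites, and the groups overlapped (log2 fold change -0.12, SE 0.07, adjusted p 0.616). The ratio of CCN1 to CCN2 per kb of exon was 0.661 ± 0.0206 (SD, n = 3) in the CAOV3 controls and 0.903 ± 0.0112 in CAOV3 ascites, with no overlap. In TOV21G the same ratio was 4.84 ± 0.125 in the controls and 4.42 ± 0.25 in ascites. So CCN2 was the more abundant of the pair in CAOV3 and CCN1 in TOV21G, in every library. CCN2 made up 59.0% to 60.5% of the summed per-kb level of CCN1, CCN2, CCN3 and CCN5 in the CAOV3 controls, 51.9% to 52.5% in CAOV3 ascites and 16.5% to 17.2% in the TOV21G controls.

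ANKRD1 (ENSG00000148677, chromosome 10, 90912096 to 90921276, minus strand) encodes a nuclear and sarcomeric ankyrin repeat protein and is among the most used YAP reporters. In CAOV3 it was at 4095, 4161 and 4152 in the controls and 4159, 4184 and 4031 in ascites. The groups overlapped and their means, 4136 ± 35.8 and 4125 ± 82.1, differed by less than the spread of the ascites libraries. The fit over both lines gave a log2 fold change of -0.00 with a 95% interval of -0.48 to 0.47, and that fit takes the spread of ANKRD1 also from TOV21G, where few reads were counted. In CAOV3 fitted alone the interval was -0.07 to 0.07. In TOV21G the values were 10.8, 8.39 and 13.5 in the controls, from 8 to 15 reads, and 13.3, 7.96 and 18.8 in ascites, from 9 to 21 reads, and no difference was detectable at this depth (log2 fold change 0.22, SE 0.22, adjusted p 0.772).

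The feedback genes restrain the coactivators. AMOTL2 (ENSG00000114019, chromosome 3, 134355874 to 134375479, minus strand) encodes a junction protein of the angiomotin family that binds YAP and TAZ and keeps them out of the nucleus. It was at 1600, 1559 and 1622 in the CAOV3 controls and 1836, 1901 and 1854 in CAOV3 ascites, so every ascites library lay above every control. Its log2 fold change was 0.23 (SE 0.06, 95% interval 0.09 to 0.36, adjusted p 0.103). It was not called by limma with the authors' scaling, and it was called as higher with TMM scaling (adjusted p 0.0408), by edgeR (adjusted p 0.0247) and by DESeq2 (adjusted p 0.0259). In TOV21G the controls were at 2162, 1969 and 1935 and the ascites libraries at 2223, 2466 and 2043, which overlapped (log2 fold change 0.15, SE 0.06, 95% interval 0.01 to 0.28, adjusted p 0.495). AMOTL2 made up 93.3% to 94.1% of the per-kb level of its family (AMOT, AMOTL1, AMOTL2) in the CAOV3 controls and 79.6% to 83.0% in the TOV21G controls.

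LATS2 (ENSG00000150457, chromosome 13, 20973032 to 21061547, minus strand), the Hippo kinase that is itself a YAP target, was at 1454, 1541 and 1560 in the CAOV3 controls and 1408, 1540 and 1455 in CAOV3 ascites. In TOV21G it was at 1667, 1534 and 1599 in the controls and 1655, 1726 and 1640 in ascites. Both pairs of groups overlapped, with a log2 fold change of -0.05 in CAOV3 (SE 0.05, adjusted p 0.731) and of 0.07 in TOV21G (SE 0.05, adjusted p 0.677).

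AXL (ENSG00000167601, chromosome 19, 41219203 to 41261766, plus strand), a receptor tyrosine kinase for the ligand GAS6 and a YAP target in several cancers, was the gene of the 10 with the most reads in both lines. Its values were 10137, 10198 and 9739 in the CAOV3 controls and 10748, 10926 and 11031 in CAOV3 ascites, with no overlap. The log2 fold change of 0.12 (SE 0.05, 95% interval 0.01 to 0.23) was not called (adjusted p 0.322). In TOV21G the controls were at 11755, 10665 and 10708 and the ascites libraries at 10457, 11211 and 9996, which overlapped (log2 fold change -0.07, SE 0.05, adjusted p 0.699). AXL made up 88.9% to 89.5% of the per-kb level of the TAM receptors (TYRO3, AXL, MERTK) in the CAOV3 controls and 81.3% to 81.9% in the TOV21G controls.

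The fits of the CAOV3 response differed in how many of the 10 genes they called, while every log2 fold change of the 5 genes without overlap kept its direction. TMM scaling, edgeR and DESeq2 each called 2 of the 10, AMOTL2 and CCN2, against 2.28%, 2.9% and 2.88% of the tested genes. With the CAOV3 libraries fitted alone, which takes the spread from these 6 libraries only, 5 of the 10 were called, against 8.19% of the tested genes. These were CCN2 as lower and, as higher, AMOTL2 (adjusted p 0.000808), TEAD4 (0.00389), CCN1 (0.0156) and AXL (0.0178). Without TOV21G control 1 and ascites 2, a setting chosen after seeing the data, 4 were called in CAOV3 (CCN2 lower, and AMOTL2, TEAD4 and CCN1 higher), against 3.55%. With the replicate number as a block, 0 of the 10 were called, against 0.658%, with CCN2 at an adjusted p of 0.134. The sum of the epithelial list in CAOV3 was 131717 to 132806 in the controls and 153330 to 162634 in ascites, and was carried by KRT18 (log2 fold change 0.33, adjusted p 0.0102) and KRT8 (0.29, adjusted p 0.0231), both called as higher. Of the other members of that list, CDH1, the epithelial cadherin, was at 425 ± 33.1 in the controls and 272 ± 8.43 in ascites, with no overlap, and was called by edgeR and DESeq2 but not by limma (-0.64, adjusted p 0.438). KRT19 overlapped (-0.06, adjusted p 0.624), and EPCAM lay above the controls (0.17, adjusted p 0.405). The part of these genes in the results was not tested.

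None of the 10 genes differed between the lines in its response to ascites, the TOV21G response minus the CAOV3 response, in the limma fit of all libraries. The interaction called 0 of 10, against 0.545% of all tested genes, and edgeR also called 0, against 0.84%. At an unadjusted p under 0.05 there were 4 of the 10, against 11.9% of all tested genes. These were CCN2 (difference 0.32, SE 0.10, 95% interval 0.11 to 0.53, adjusted p 0.244), CCN1 (-0.26, adjusted p 0.323), TEAD4 (-0.21, adjusted p 0.39) and AXL (-0.19, adjusted p 0.345). DESeq2 called 1 of the 10, CCN2 (difference 0.32, adjusted p 0.0485), against 1.19% of the tested genes. Without TOV21G control 1 the difference of CCN2 was 0.42 (adjusted p 0.0134), and without both TOV21G control 1 and ascites 2 it was 0.40 (adjusted p 0.0113), again the 1 call among the 10, against 1.08%. So whether the CCN2 response differed between the lines depended on the tool and on those libraries.

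The TOV21G replicates varied together across several of these genes. TEAD4, CCN1, CCN2, AMOTL2, LATS2 and AXL, 6 of the 10 genes, were each highest in control library 1 among the controls and in ascites library 2 among the ascites libraries, and TEAD1 was lowest in both. These are the libraries at one end of the axis within TOV21G groups. The median coefficient of variation of the 9 genes without ANKRD1 was 6.06% in the TOV21G controls and 5.04% in TOV21G ascites, against 3.27% and 1.80% in CAOV3. Labels give no batch that separates these libraries. Without both of them 0 of the 10 were still called after ascites in TOV21G, with CCN2 at a log2 fold change of 0.09, CCN1 at -0.10, AMOTL2 at 0.13 and TEAD1 at 0.11. With any 1 of the 12 libraries left out, the TOV21G log2 fold change ranged from -0.18 to -0.04 for CCN1, from 0.08 to 0.21 for AMOTL2 and from 0.07 to 0.17 for TEAD1, so the size of these uncalled differences rests on single libraries.

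**Figure D3:**
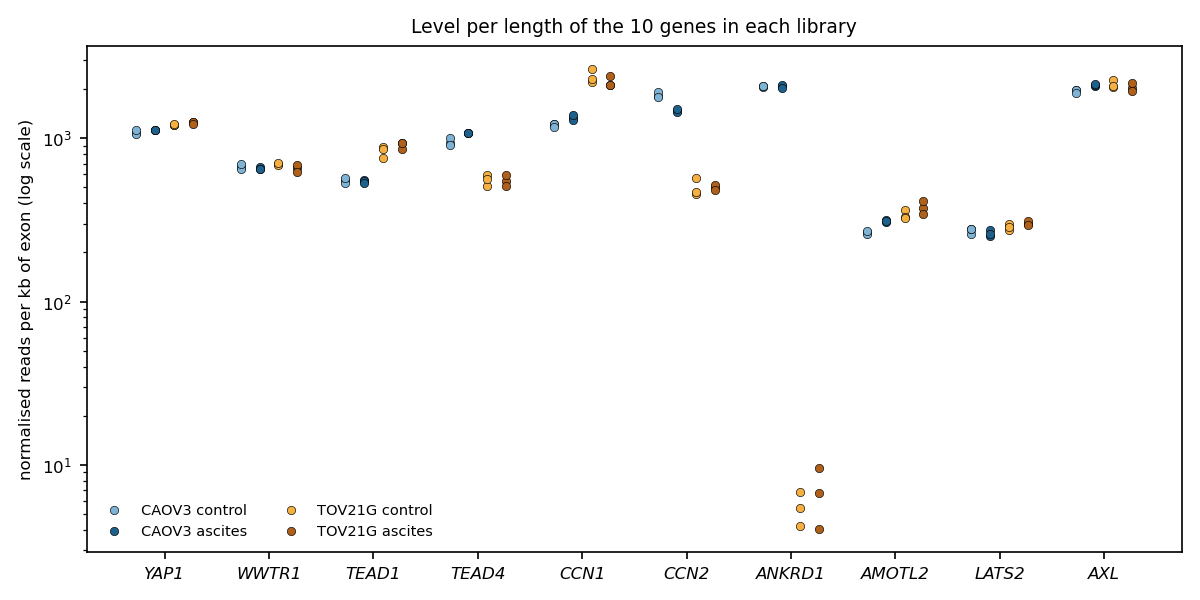
Normalised reads per kb of exon (y axis, log scale) for each of the 10 genes (x axis) in each library, coloured by line and treatment. ANKRD1 lies at about 2090 per kb in CAOV3 and 5.51 in TOV21G controls, while for LATS2, WWTR1, YAP1 and AXL the control groups of the lines differ by a log2 difference of at most 0.15.

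At baseline ANKRD1, CCN2 and CCN1 differed most between the lines. Between the control groups 8 of the 10 genes were called, 5 higher and 3 lower in TOV21G, but 82.2% of all tested genes were called in this comparison (40.8% higher and 41.4% lower), so that count is near the background. ANKRD1 was the most different of the 10, at 4136 ± 35.8 in CAOV3 and 10.9 ± 2.54 in TOV21G (SD, n = 3), 380 times higher in CAOV3 (log2 difference -8.46, SE 0.22, adjusted p 3.38e-13). CCN2 was 3.68 times higher in CAOV3, at 4278 ± 157 against 1162 ± 146 (log2 difference -1.89, SE 0.07, adjusted p 9.99e-12). CCN1 was 1.99 times higher in TOV21G, at 5892 ± 591 against 2964 ± 76.8 (log2 difference 0.99, SE 0.07, adjusted p 8.24e-09). So the 3 classic targets did not share a direction between the lines.

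The other genes differed less between the lines. TEAD4 was 1.70 times higher in CAOV3 (log2 difference -0.77, SE 0.06, adjusted p 4.54e-08) and TEAD1 was 1.51 times higher in TOV21G (0.59, SE 0.06, adjusted p 2.45e-07), so the ratio of TEAD4 to TEAD1 per kb was 1.71 ± 0.137 in CAOV3 and 0.672 ± 0.0991 in TOV21G. AMOTL2 was 1.27 times higher in TOV21G (0.34, SE 0.06, adjusted p 0.000155) and YAP1 1.11 times (0.15, SE 0.03, adjusted p 0.00102). AXL was 1.10 times higher in TOV21G (0.14, SE 0.05, adjusted p 0.021), a call lost without TOV21G control 1 (adjusted p 0.0896) or CAOV3 control 3 (adjusted p 0.073). WWTR1 (0.06, 95% interval -0.03 to 0.15, adjusted p 0.222) and LATS2 (0.08, 95% interval -0.03 to 0.18, adjusted p 0.157) were not called.

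The order of levels per kb of exon showed the same contrast within each line. In the CAOV3 controls it ran from ANKRD1 (2090 ± 18.1), AXL (1945 ± 48.4) and CCN2 (1829 ± 67.3) through CCN1 (1207 ± 31.3), YAP1 (1092 ± 32.6), TEAD4 (947 ± 44.2), WWTR1 (668 ± 26.6) and TEAD1 (553 ± 18.1) to LATS2 (272 ± 10.1) and AMOTL2 (266 ± 5.39). The libraries of AXL and CCN2 overlapped, as did those of LATS2 and AMOTL2. In the TOV21G controls CCN1 led (2400 ± 241), followed by AXL (2143 ± 120), YAP1 (1212 ± 6.83), TEAD1 (835 ± 64.6), WWTR1 (696 ± 10.96), TEAD4 (556 ± 40.2), CCN2 (497 ± 62.2), AMOTL2 (338 ± 20.5), LATS2 (287 ± 11.9) and ANKRD1 (5.51 ± 1.28). There CCN1 and AXL overlapped, as did TEAD4 and CCN2. With the longest transcript as the length, ANKRD1 and AXL changed places in CAOV3, as did LATS2 and AMOTL2, and TEAD1 and WWTR1 changed places in TOV21G. AXL was within the first 2 places of every group under both lengths.

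The upstream kinases held no call after ascites. Of 13 Hippo kinase core genes 0 were called in either direction in CAOV3 and 0 in TOV21G. Among the 13 were the kinases STK3, STK4 and LATS1, their adaptors SAV1, MOB1A and MOB1B, and NF2. Over all tested genes 1.73% were called in CAOV3 and 0.409% in TOV21G, so 0 of 13 is near the background. The median log2 fold changes were -0.00 in CAOV3 and 0.02 in TOV21G. At an unadjusted p under 0.05 limma counted 3 in CAOV3 (NF2, SAV1 and WWC1) and 1 in TOV21G (TAOK3). The shares of all tested genes were 12.9% and 9.17%. In CAOV3 the ascites libraries lay above the controls for 3 of the 13 and below for 1, against 11.4% and 12.8% of all tested genes. With edgeR and DESeq2 0 were called in both lines. At baseline 9 of the 13 were higher in TOV21G and 3 lower, against 40.8% higher and 41.4% lower among all tested genes. The count in either direction was near the background, as 82.2% of all tested genes were called there. The split between directions was not tested. NF2, which encodes the activator Merlin, was at 3030 ± 91.6 in CAOV3 and 8684 ± 170 in TOV21G controls (log2 difference 1.52, adjusted p 6.24e-13). WWC1, which encodes the scaffold KIBRA, differed by 1.39 and the kinase TAOK2 by 0.93. The genes lower in TOV21G were STK4 (-0.72), WWC2 (-0.42) and MAP4K4 (-0.16).

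Of 13 cofactors and regulators analysed, 0 were called after ascites in either line, with medians of -0.00 and 0.02. Over all tested genes 1.73% were called in CAOV3 and 0.409% in TOV21G, so 0 of 13 is near the background. The unadjusted counts were 1 in CAOV3 (WTIP) and 1 in TOV21G (TEAD2), against 12.9% and 9.17% of all tested genes. With edgeR and DESeq2 0 were called. VGLL1 and VGLL3 were not analysed here. All 13 were called at baseline, 10 higher and 3 lower in TOV21G, where 82.2% of all tested genes were called (40.8% higher and 41.4% lower). TEAD3, another TEAD factor, was at 170 ± 21.6 in CAOV3 controls and 1026 ± 32.0 in TOV21G controls (log2 difference 2.59, adjusted p 1.81e-12). The angiomotin AMOTL1 was at 1.05 ± 1.08 and 162 ± 21.6, and the cadherin FAT4 at 45.6 ± 6.57 and 803 ± 267. The LIM protein AJUBA (-0.89), the polarity protein SCRIB (-0.71) and the 14-3-3 protein YWHAQ (-0.67) were lower in TOV21G.

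**Figure D4:**
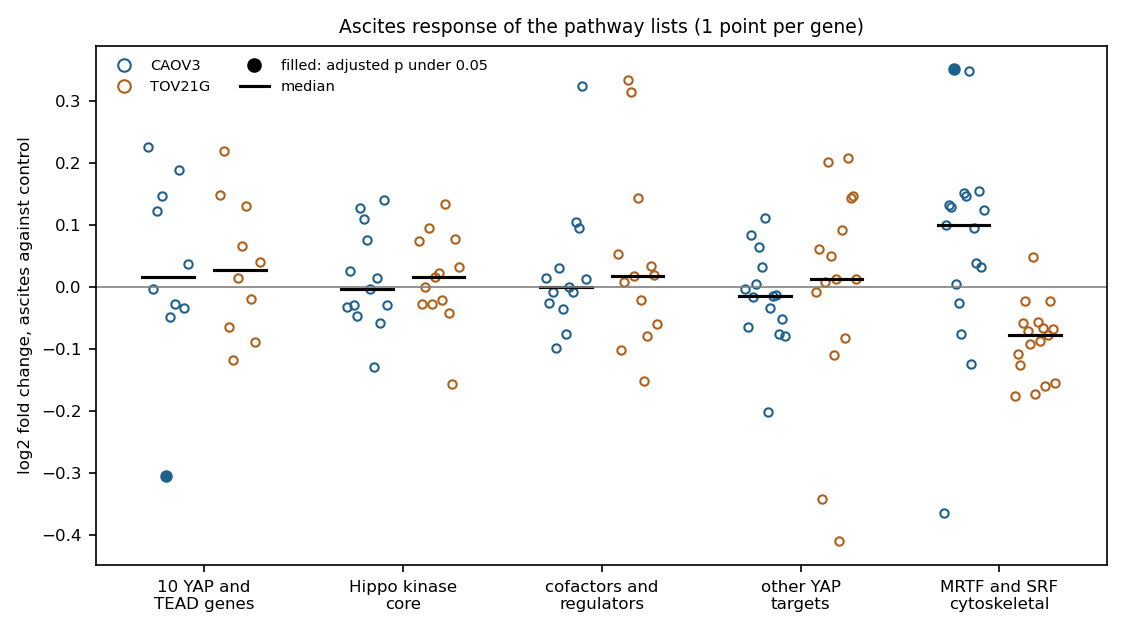
Log2 fold change of ascites against control (y axis) for the genes of 5 lists (x axis) in CAOV3 and TOV21G, with 1 point per gene, filled where the adjusted p was under 0.05, and a bar at the median. CCN2 and FHL2 are the filled points, both in CAOV3. The cytoskeletal list has its median at 0.10 in CAOV3 and -0.08 in TOV21G.

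A wider set of published YAP targets also held no limma call after ascites. Of 15 analysed genes 0 were called in either line, with medians of -0.01 in CAOV3 and 0.01 in TOV21G, and FOXF2 was not analysed here. Over all tested genes 1.73% were called in CAOV3 and 0.409% in TOV21G, so 0 of 15 is near the background. At an unadjusted p under 0.05 there were 0 in CAOV3 and 1 in TOV21G, CCDC80, against 12.9% and 9.17% of all tested genes. In TOV21G edgeR and DESeq2 called CCDC80 as lower, against 0.647% and 0.857% of the tested genes called. CCDC80, a secreted matrix protein, was at 416 ± 7.18 in the TOV21G controls and 328 ± 11.4 in TOV21G ascites, with no overlap (log2 fold change -0.34, SE 0.07, adjusted p 0.0519). At baseline 7 were higher and 6 lower in TOV21G, a count and a split near those of all tested genes (40.8% higher and 41.4% lower). TGFB2, a TGF-beta ligand, was at 1171 ± 43.0 in CAOV3 and 239 ± 38.3 in TOV21G (log2 difference -2.30), and F3, tissue factor, differed by -1.65 and GADD45A by -0.65. Higher in TOV21G were the kinase NUAK2 (2.68, adjusted p 2.29e-11), the phosphatase PTPN14 (1.48) and CCDC80 (1.12).

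The actin and serum response genes, which MRTF and SRF control and which share several targets with YAP, had 1 call. FHL2, a LIM-domain protein, rose in CAOV3 from 2876, 2969 and 2890 in the controls to 3757, 3626 and 3757 in ascites (log2 fold change 0.35, SE 0.05, adjusted p 0.00465). In TOV21G its groups overlapped (-0.02, adjusted p 0.935), and the difference between the lines was -0.37 (adjusted p 0.0558). Of the 17 genes analysed 13 had a log2 fold change above 0 in CAOV3, against 8406 of all 17616 tested genes. The median was 0.10 for the 17 and -0.00 for all tested genes. For 10 of the 17 the ascites libraries all lay above the controls and for 2 all below, against 11.4% and 12.8% of all tested genes. In TOV21G 1 of the 17 was above 0, against 7343 of all 17616 tested genes, and 0 were called. The median there was -0.08 for the 17 and -0.02 for all tested genes. At an unadjusted p under 0.05 there were 8 in CAOV3 and 3 in TOV21G, against 12.9% and 9.17% of all tested genes. The count models called 3 in CAOV3, namely FHL2, TAGLN and TPM4, against 2.9% (edgeR) and 2.88% (DESeq2) of all tested genes. In TOV21G edgeR called 0 and DESeq2 1, TPM1, against 0.647% and 0.857%. The interaction called 0 of the 17 by limma, with a median of -0.19 and 9 at an unadjusted p under 0.05, against 11.9% of all tested genes. For the interaction edgeR called 2 (FHL2 and TPM1) and DESeq2 3 (with ZYX), against 0.84% and 1.19%. CNN1 was not analysed here. At baseline 12 were higher and 4 lower in TOV21G, against 40.8% and 41.4% of all tested genes, with ACTA2 at 0.378 ± 0.655 in CAOV3 and 1198 ± 98.1 in TOV21G controls, TGFB1I1 differing by 3.04 and TAGLN by 1.51, and TPM2 (-0.97), ZYX (-0.31) and CNN2 (-0.25) lower.

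Of the TAM receptors and ligands besides AXL, the ligand PROS1 was called in CAOV3, 1 of 4 against 1.73% of all tested genes. It was at 251, 235 and 258 in the CAOV3 controls and 393, 332 and 434 in CAOV3 ascites, so it rose with no overlap (log2 fold change 0.63, SE 0.09, adjusted p 0.00187). In TOV21G its mean was 1091 ± 71.1 in the controls, its log2 fold change was -0.01, and the difference between the lines was called (-0.64, SE 0.12, adjusted p 0.038). TYRO3, another TAM receptor, was at 2746 ± 133 in the TOV21G controls and 2378 ± 133 in TOV21G ascites, with no overlap (log2 fold change -0.21, SE 0.05, adjusted p 0.105), and edgeR and DESeq2 called it as lower. GAS6, the ligand of AXL, was at 13.6 ± 3.58 in CAOV3 and 1475 ± 79.3 in TOV21G controls (log2 difference 6.68, adjusted p 2.91e-12). At baseline all 4 of TYRO3, MERTK, GAS6 and PROS1 were called as higher in TOV21G, against 40.8% of all tested genes. Of the other CCN genes CCN3 was tested and was not called after ascites, at baseline it was higher in TOV21G (1.70, adjusted p 2.78e-06), CCN5 was at 2.51 ± 0.778 in CAOV3 and 8.61 ± 1.16 in TOV21G controls and was not tested, and CCN4 and CCN6 were not analysed here.

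Markers of cells that ascites can carry were followed beside these genes. The 3 analysed leukocyte markers of a list of 7 (CD14, LYZ and FCER1G) summed to 129 to 140 in the CAOV3 controls and 111 to 139 in CAOV3 ascites, and to 19.9 to 33.2 and 20.7 to 29.2 in TOV21G, where LYZ was at 0. The mesothelial list of CALB2, UPK3B, MSLN and LRRN4 summed to 62.4 to 76.2 and 47.0 to 68.5 in CAOV3 and to 586 to 659 and 583 to 639 in TOV21G. The fibroblast list summed to 4620 to 5355 in the CAOV3 controls and 4226 to 4437 in CAOV3 ascites, and to 12548 to 13084 and 11259 to 11694 in TOV21G, so it was lower in ascites in both lines with no overlap. Its largest gene in CAOV3 was LUM, at 3532 to 4604, and LUM was at 0 in every TOV21G control. In TOV21G the largest was COL1A2, at 10509 to 11100 in the controls and 9491 to 9859 in ascites. COL1A2 was at 2.46 ± 0.442 in the CAOV3 controls, so different genes carried the sum in each line. The part of this list in the fall of CCN2 was not tested. The analysed endothelial marker, PECAM1, was at 11.3 or less in every library. Strandedness was not stated, and 1 or more annotated genes overlap AMOTL2, LATS2, TEAD1, WWTR1, AXL, CCN2 and YAP1, so a share of their reads could belong to those genes.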

How the data were processed

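RNA sequencing of 12 libraries of CAOV3 and TOV21G cells was analysed from the authors' deposited gene tables. Per the file headers each deposited value is a count, but the values are not whole numbers and were used as a normalised signal. All values were whole multiples of 1 step per library (within 0.001 reads), so whole reads were recovered, and the steps matched size factors computed over the 12 libraries. The submitters' processing notes name Trim Galore, cutadapt, STAR, HTSeq and DESeq. The genome build and strandedness are not given in the sources used here, and positions are those of GENCODE release 29 (GRCh38). Symbols were matched by Ensembl identifier.

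Genes with a value of at least 10 in at least 3 libraries (17616) were tested with limma 3.58.1 (lmFit, eBayes with trend, R 4.3.3) on log2(value + 1), 1 mean per group, with Benjamini-Hochberg adjustment per contrast and a threshold of 0.05. Fold changes on this scale understate changes of low genes. Alternatives were TMM scaling, edgeR 4.0.16 and DESeq2 1.42.0 on recovered reads, a pseudocount of 10, no filter, each line alone, a replicate block, each library left out, and other lengths. On simulated data 75% and 71% of changes of 0.5 on the log2 scale were recovered in CAOV3 and TOV21G, over 17328 and 17309 genes. The changes were placed only in genes with a mean of at least 50. Smaller changes were not simulated, and the ascites log2 fold change of largest size among the 10 genes was -0.31 (CCN2 in CAOV3). The recovered shares therefore do not apply to changes of the size seen in these genes. Simulated counts were drawn independently, without the axis shared within the TOV21G groups. Of all calls 10.3% and 6.94% were false, above the nominal share. Among calls of genes with a control mean of at least 50, 3.55% and 1.23% were false. ANKRD1 in TOV21G lay below that mean.

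All 10 genes are named in every contrast. Of each pathway list, genes called in an ascites contrast or the interaction are named, and at baseline the 3 highest and 3 lowest called with a mean of at least 50. Genes and lists were chosen with earlier results of these data known. Set tests were not run. Intervals cover the spread between libraries only.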

Additional observations from a re-analysis of the deposited data

How the results depend on the processing

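Of 770 alternative values for single genes, 728 kept both direction and side of the threshold. The number of the 10 genes called in CAOV3 was 1, and became 2 with TMM scaling, edgeR and DESeq2, 5 with each line alone, 4 without TOV21G control 1 and ascites 2 together (added after seeing the data), and 0 to 2 when 1 library was left out. CCN2 was the call in the fit of all libraries. TOV21G ascites gave 0 in every alternative run. The interaction gave 1 with DESeq2, 1 without TOV21G control 1 and ascites 2, and 0 to 1 with 1 library left out. The baseline count was 7 to 8 with 1 library left out. The cause of these shifts was not tested.

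The replicate numbers did not pair the samples: deviations of same-numbered libraries correlated at -0.0196, 0.0190 and 0.0155 in CAOV3 and at -0.113, -0.332 and 0.0193 in TOV21G. With the number as a block, 0 of the 10 were called in CAOV3, against 0.658% of all genes, and TOV21G ascites and the interaction stayed at 0. The block was not run at baseline.

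The log2 values with a reversed sign were all near 0, at most 0.0514 in size. In the fit of all libraries, though, ANKRD1 was at 0.22 both in TOV21G and in the interaction. TEAD4 in TOV21G was -0.02, and 0.0050 with TMM scaling, 0.0065 with edgeR and -0.0765 to 0.0323 with 1 library left out. The YAP1 interaction was -0.0089 without both TOV21G libraries. With 1 library left out, ranges were -0.0483 to 0.114 for CCN2 in TOV21G, -0.0144 to 0.0125 for ANKRD1 in CAOV3, -0.0514 to 0.520 for ANKRD1 in TOV21G, -0.0205 to 0.0206 for the YAP1 interaction and -0.0474 to 0.524 for the ANKRD1 interaction.

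With the longest transcript as length, the ratio of WWTR1 to YAP1 was 0.877, 0.836, 0.823 and 0.753 (CAOV3 control and ascites, TOV21G control and ascites), that of CCN1 to CCN2 was 0.708, 0.969, 5.19 and 4.74, and that of TEAD4 to TEAD1 in CAOV3 1.90 and 2.20, a change by the same factor in every library. Depth limited ANKRD1 in TOV21G only, at 8 to 21 reads.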
